A study of Mus musculus with 12 samples.

Results

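The cytosolic ribosomal protein genes were examined in mural granulosa cells (MGCs), the layer along the wall of the ovarian follicle, and in cumulus cells, the granulosa cells that surround the oocyte. The set holds every protein-coding mouse gene whose symbol is Rpl or Rps followed by a digit, together with Rplp0, Rplp1, Rplp2, Rpsa and Fau; the Rps6k kinases and names ending in -ps were left out. This gave 87 genes of the 35856 listed in at least 1 of the tables. Of these, 51 belong to the large subunit and 34 to the small subunit. The other 2, Rpl7l1 and Rps19bp1, match the symbols but are not structural parts of the ribosome.

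The cells came from WT (C57/BL6) mice and from Sphk1/2gc-/- mice, in which Sphk1 is null in every cell and floxed Sphk2 is deleted by Cre under the Fshr promoter, that is in granulosa cells. Both genes encode kinases that make sphingosine-1-phosphate (S1P). All animals were immature females. By the paper's methods, such females were first primed with eCG to stimulate follicle growth and then given hCG, which acts through the LH receptor. Cells were taken 2 h post-hCG. There were 3 libraries for each genotype and cell type, 12 in all. Groups labelled control and knockout are called WT and KO here, since the paper describes the controls of the sequencing as WT mice. Nothing in the labels states that libraries came from separate animals, so p-values measure the spread between these libraries, which may be technical.

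Each cytosolic ribosome consists of a small subunit, which reads the mRNA, and a large subunit, which forms the peptide bonds. Each subunit needs its own set of proteins in about equal numbers, and their genes are among the most strongly transcribed of any dividing or secreting cell. Their mRNAs begin with a run of pyrimidines, the terminal oligopyrimidine (TOP) tract, through which mTOR signaling adjusts their translation. The study used one of them, Rpl19, as an endogenous control for qRT-PCR, together with Gapdh or in its place.

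The values were FPKM (fragments scaled by gene length and library total), so that levels of different genes can be compared within a table. Library totals read from the step of the FPKM values ran from 16100365 to 19761604 reads. Gene models were listed above 0 for 18788 to 19289 genes in 5 cumulus libraries and for 27541 in cumulus WT library 3. MGC KO library 3 also stood apart, with 7 genes of cumulus expansion at a summed 719 FPKM against 3826 to 6069 FPKM in the other 5 MGC libraries. Sphk1 did not separate the genotypes: it was at 0.460 to 1.88 FPKM in WT MGCs and 0.104 to 0.557 FPKM in KO MGCs, and at 0.0699 to 0.0954 and 0.0778 to 0.557 FPKM in cumulus cells. Sphk2 overlapped too (5.18 to 5.86 against 4.51 to 6.29 FPKM in MGCs, 0.403 to 0.602 against 0.434 to 0.752 FPKM in cumulus cells), and gene totals also count exons outside the deleted part. The genotype labels were therefore not checked by these genes, and each KO direction below is that of the libraries labelled KO.

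The 10 granulosa markers summed to 9266 to 15387 FPKM in MGCs and 2544 to 4008 FPKM in cumulus cells, with none at 0. Of markers of other cells in cumulus libraries, 10 for oocytes summed to 1.62 to 5.85 FPKM, 9 for theca and stroma to 12.3 to 66.4 FPKM and 8 for leukocytes to 4.88 to 54.9 FPKM, and in MGCs those for oocytes summed to 27.8 to 113 FPKM. In MGCs, 8 leukocyte markers summed to 161 to 307 FPKM in WT and 20.5 to 108 FPKM in KO, and 6 endothelial markers to 11.4 to 15.2 and 8.68 to 9.72 FPKM, without overlap. Endothelial markers (1.15 to 1.79 against 0.589 to 0.728 FPKM) and 5 erythrocyte markers (4.37 to 26.8 against 0.3002 to 1.78 FPKM, Hba-a2 at 0 throughout) were also lower in KO cumulus cells. There the 7 genes of cumulus expansion summed to 376 to 843 FPKM in WT and 1182 to 1476 FPKM in KO, and the granulosa markers to 2898 to 4008 and 2544 to 2882 FPKM, again without overlap. The part of these cells in the results was not tested.

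The start of the genes was examined in RefSeq promoters (GRCm38.p6), 250 bases before to 50 bases after the annotated start, which were at hand for 67 of the 87 genes. A C within 5 bases of the start, followed by at least 4 bases that are each C or T, was present in 31 of these 67 (46.3%) and in 21.2% of all 27025 genes with a promoter in that collection. The windows below run from 15 bases before the start to 14 bases past it, with the pyrimidine tract in capitals, and are shown for genes whose levels are described further on. By this rule the first 4 hold the tract and the last 2 do not.
Rps6 (chr4:86857353-86857382, minus strand): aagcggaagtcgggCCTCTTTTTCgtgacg
Fau (chr19:6057932-6057961, plus strand): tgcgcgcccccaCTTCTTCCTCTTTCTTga
Rps27 (chr3:90213634-90213663, minus strand): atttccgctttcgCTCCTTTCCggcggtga
Rpl28 (chr7:4792950-4792979, plus strand): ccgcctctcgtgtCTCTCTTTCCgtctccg
Rps15 (chr10:80292416-80292445, plus strand): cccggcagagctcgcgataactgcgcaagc
Rpl4 (chr9:64173372-64173401, plus strand): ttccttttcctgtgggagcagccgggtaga
The tract spanned 10 bases in Rps6 and 16 in Fau. Among other motifs searched on both strands, CCGGAAG (a core bound by ETS factors) was in 38.8% of the 67 promoters against 9.93% of all, GGGCGG (the GC box) in 62.7% against 38.2%, and ATGGCGG in 16.4% against 4.69%. In 69 genes of the mitochondrial ribosome (named Mrpl or Mrps), CCGGAAG was in 37.7%, GGGCGG in 49.3% and ATGGCGG in 18.8%. The frequencies of CCGGAAG and ATGGCGG therefore did not set the cytosolic genes apart from the mitochondrial ones. The pyrimidine tract was in 24.6% of those 69, against 46.3% of the 67. The last 5 letters of GGGCGG and ATGGCGG are the same, and no stretch can be both. The absence of the tract in Rps15 and Rpl4 says only that no tract under this rule begins within 5 bases of this annotated start. In Rpl4 a run of C and T lies just upstream and ends 5 bases before the start.

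All but a few of the genes were strongly expressed in both cell types, and the mean share of the set as a whole was larger in cumulus cells than in MGCs, with some overlap in FPKM. Its summed FPKM was 5.44%, 5.96% and 5.00% of the total in WT MGC libraries 1 to 3 and 4.93%, 4.68% and 6.02% in the KO libraries. In cumulus cells it was 6.72%, 7.34% and 6.26% in WT and 5.89%, 8.12% and 7.35% in KO. The genotypes overlapped in both cell types, and the mean share differed by less than the spread of the libraries: 5.46% ± 0.481 and 5.21% ± 0.711 in MGCs, 6.78% ± 0.543 and 7.12% ± 1.13 in cumulus cells (SD, n = 3 each). As a share of reads, which is not divided by gene length, the set took 2.51% to 3.02% in the 6 MGC libraries and 3.63% to 5.29% in the 6 cumulus libraries, without overlap. The large subunit genes together exceeded those of the small subunit 1.38- to 1.43-fold in MGCs and 1.09- to 1.37-fold in cumulus cells. These sums cover 51 large and 34 small subunit genes. The median per gene was lower for the large subunit in every library. It was 142 to 175 against 149 to 187 FPKM in MGCs, and 44.7 to 85.1 against 69.4 to 169 FPKM in cumulus cells.

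Within the set, levels were far less even in cumulus cells than in MGCs. In MGC libraries the quartiles of the genes lay 1.48 to 1.68 log2 units apart, 0 genes exceeded 1000 FPKM and the 5 highest took 21.6% to 22.2% of the sum. In cumulus libraries the quartiles lay 2.85 to 3.40 log2 units apart, 5 to 8 genes exceeded 1000 FPKM and the 5 highest took 44.7% to 55.6%. The highest in MGCs were Rplp1 (817 FPKM, mean of 6 libraries), Rps3a1 (767), Rpl8 (739), Rplp0 (641) and Rps15 (584). In cumulus cells they were Rps3a1 (3639 FPKM), Rpl4 (3405), Rplp0 (2650), Rps6 (1651) and Rps2 (1587). Rps3a1 and Rplp0 were among the 5 highest in both, whereas Rpl8 was at 29.3 FPKM and Rps15 at 16.3 FPKM in cumulus cells.

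**Figure D1:**
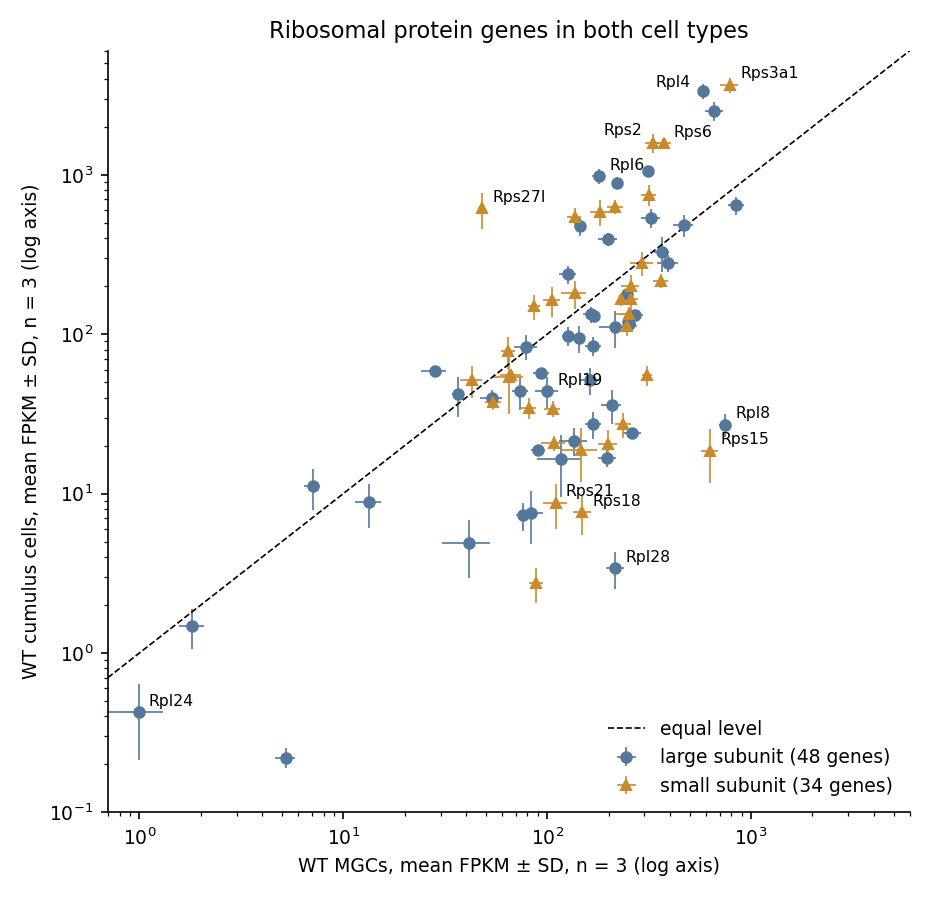
Mean FPKM of 82 structural ribosomal protein genes in WT MGCs (x axis) and WT cumulus cells (y axis), both on log axes, with SD over 3 libraries. Points on the dashed line have equal levels; Rpl28, Rps15 and Rpl8 lie far below it and Rps27l, Rpl4 and Rpl6 above it.

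Whether the tables of the cell types were scaled alike is not stated, so their levels are set side by side here and not tested. Of 82 structural genes at 0.5 FPKM or more in a WT group, 7 were over 4-fold higher and 22 over 4-fold lower in WT cumulus cells on the log2(FPKM + 1) scale, against 6.47% and 13.7% of the 15339 genes compared. Genes outside the set that were strongly expressed in MGCs also spread widely. Of 745 protein-coding ones with a mean of 50 FPKM or more in MGCs, 70 were over 4-fold higher and 226 over 4-fold lower. Past 4-fold in either direction were 39.7% of these and 35.4% of the structural genes. The 745 were picked by their level in MGCs alone, which favors genes lower in cumulus cells. The filters thus differ, and these shares are not strictly comparable. The 6 cumulus libraries lay wholly below the 6 MGC libraries for 36 of the 82 and wholly above for 20 (44.7% and 17.2% of all genes). Libraries of a cell type ordered the genes alike whatever the genotype, with Spearman rho of 0.987 to 0.998 between MGC libraries and 0.973 to 0.998 between cumulus libraries over 81 genes. Between an MGC and a cumulus library rho was 0.550 to 0.657.

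Rpl28, a protein of the large subunit, showed the widest gap. It stood at 207, 240 and 199 FPKM in libraries of WT MGCs and at 2.73, 4.44 and 3.06 FPKM in WT cumulus libraries, where it rested on 53 to 147 reads over both genotypes. Rps15, of the small subunit, stood at 618, 690 and 572 FPKM in WT MGCs and 16.1, 26.4 and 13.3 FPKM in WT cumulus cells, and Rpl8, near the peptidyl transferase center, had means of 748 ± 53.5 and 27.1 ± 4.43 FPKM (SD, n = 3). The libraries of the cell types did not overlap for any of these 3 genes. Rps18, Rps21, Rpl10a and Rpl39 were 11.0- to 19.4-fold lower in WT cumulus cells.

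In the other direction, Rps27l, a paralog of Rps27 that responds to p53, stood at 46.1, 49.8 and 47.2 FPKM in WT MGCs and 758, 641 and 446 FPKM in WT cumulus cells, a 12.9-fold difference of the means. Rpl4, which lines the exit tunnel for the nascent peptide, was 5.78-fold higher in WT cumulus cells, and Rpl6 5.48-fold. Rps2, Rps3a1 and Rps6 of the small subunit were 4.24- to 4.81-fold higher. The same direction was seen in KO cells for 80 of the 82 genes, with 9 over 4-fold higher and 22 over 4-fold lower in KO cumulus cells.

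The gap between cell types was set beside features of the transcripts. Over 84 genes the Spearman rho of the log2 difference was -0.285 with the GC content of the main transcript, 0.222 with its length and -0.00431 with the share of its 31-base stretches that other genes also hold. That share had a median of 49.5% and reached 98.7% in Rps27, and 60 of the 85 structural genes have named pseudogenes (14 for Rpl23a, 11 for Rps2, 10 for Rpl19). How the authors counted such reads is not stated, so levels of these genes are uncertain where copies could take or lend reads. Rpl24 (0.181 to 1.35 FPKM) and Rpl13a (0.0502 to 7.12 FPKM) were low in both tables, although the ribosome holds both proteins. Other genes share 82.2% and 58.2% of their stretches. Genes with a pyrimidine tract at the start by the rule above had a median log2 difference of -0.42 (30 genes) and those without it -0.47 (31 genes).

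In MGCs no ribosomal protein gene was called between KO and WT. Of the 84 genes tested, 0 were called by limma at an adjusted p of 0.05 or less, where 0.0393% of all 15279 genes were. With no adjustment, 2 were higher and 1 lower at p of 0.05 or less. The estimates leaned to one side: 74 of 84 were below 0, with a median log2 fold change of -0.10 beside -0.0034 for all genes. In the small subunit 33 of 34 were below 0 (median -0.12) and in the large subunit 41 of 48 (median -0.08). After quantile normalization 57 of 84 were below 0 (median -0.04), and without WT library 2 60 were (median -0.04). All 84 estimates were smaller than 0.5 log2 units in size, and their median SE was 0.137.

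**Figure D2:**
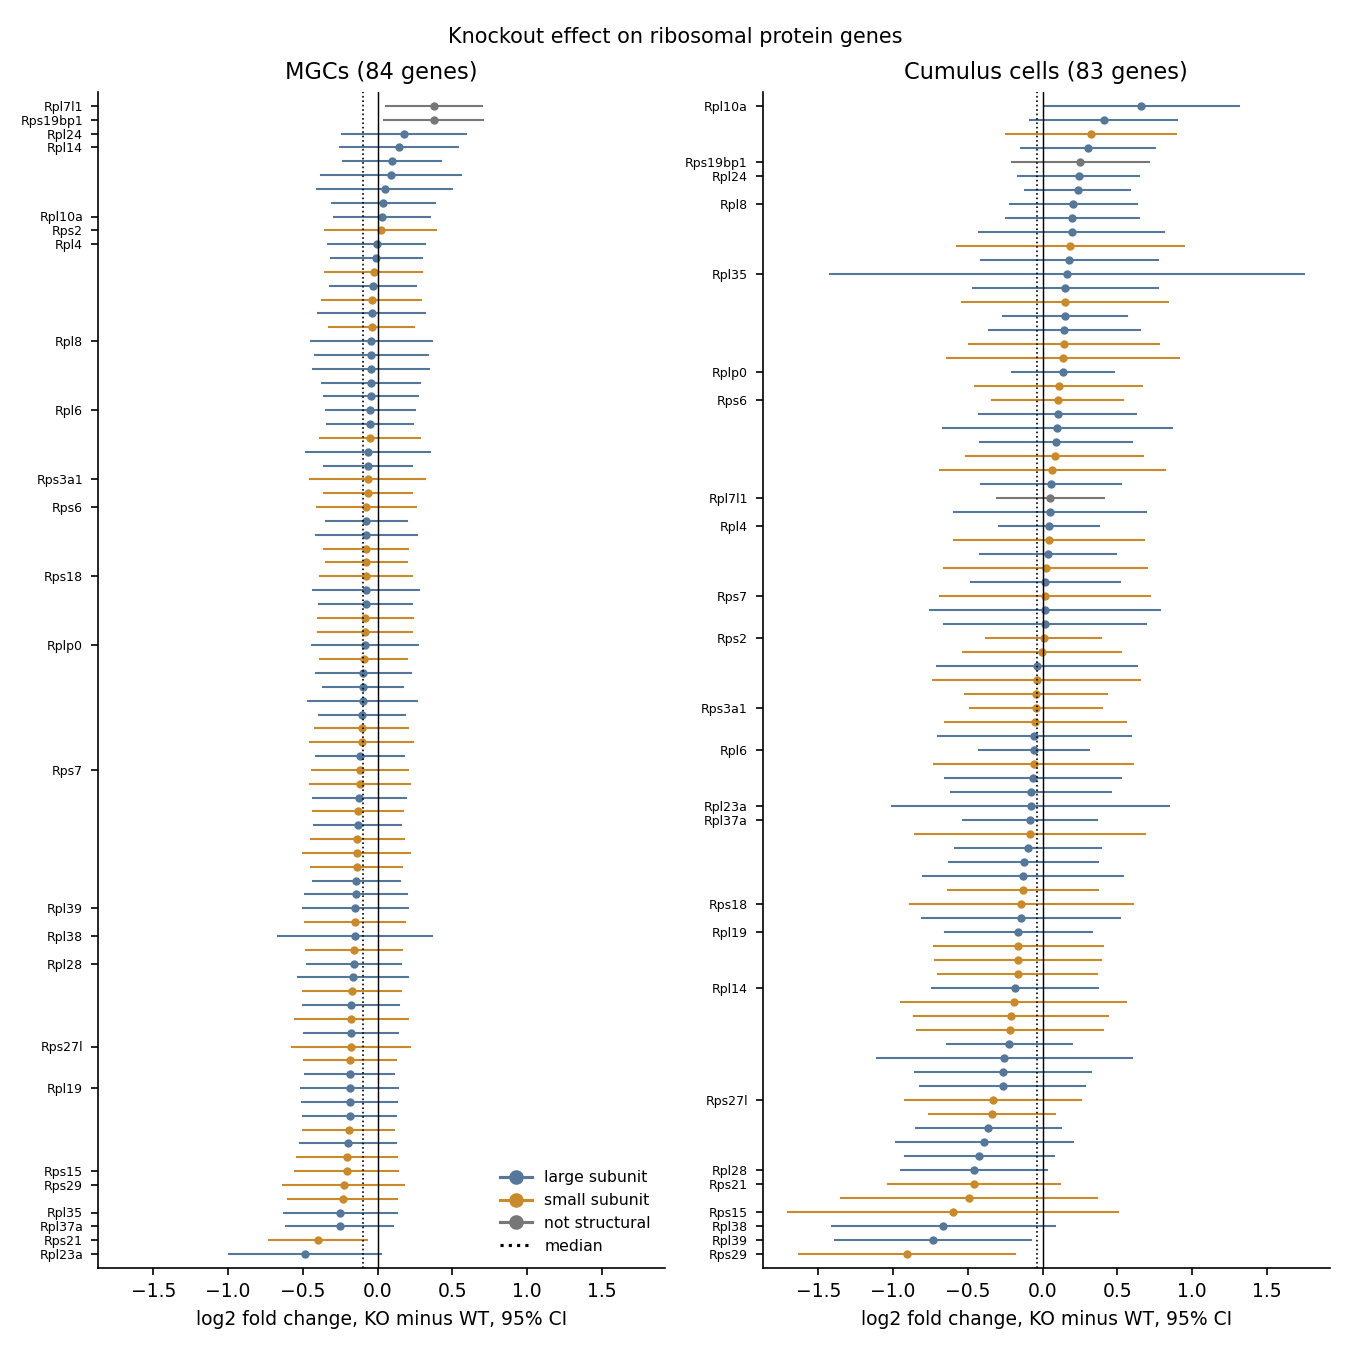
Log2 fold change (KO minus WT, x axis) of each ribosomal protein gene tested in MGCs (84 genes) and cumulus cells (83 genes), as the limma estimate with its 95% confidence interval, coloured by subunit. In MGCs 74 of 84 estimates lie below 0 within 0.5 log2 units, and in cumulus cells they spread from -0.91 (Rps29) to 0.66 (Rpl10a) on both sides of 0.

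The lowest estimate in MGCs was that of Rpl23a, a large subunit protein at the mouth of the exit tunnel. It was at 49.5, 46.2 and 29.0 FPKM in WT libraries 1 to 3 and at 30.8, 29.3 and 26.0 FPKM in KO libraries, a log2 fold change of -0.49 (95% interval -0.99 to 0.02, limma adjusted p = 0.555). WT library 3 lay among the KO libraries. Rps21, of the small subunit, had the smallest p, at 113, 123 and 93.8 FPKM in WT libraries, and in KO libraries at 85.1, 80.3 and 82.5 FPKM, and its log2 fold change was -0.40 (95% interval -0.72 to -0.07, limma adjusted p = 0.459). Every KO library was below every WT library for 3 of the 84 genes, Rps21 and Rps15 among them, where 9.17% of all genes tested were so ordered. Rpl37a, Rpl35, Rps28 and Rps29 followed with estimates from -0.25 to -0.23.

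The highest estimates were those of the genes that are not parts of the mature ribosome. Rpl7l1, a nucleolar relative of Rpl7, was at 28.7, 31.2 and 30.1 FPKM in WT libraries, and in KO libraries at 35.6, 37.1 and 45.8 FPKM (log2 fold change 0.38, 95% interval 0.06 to 0.70, limma adjusted p = 0.480). Rps19bp1, which binds Rps19, was at 13.4, 16.2 and 12.2 FPKM in WT libraries, and in KO libraries at 18.3, 17.4 and 19.1 FPKM (0.38, 95% interval 0.04 to 0.71, limma adjusted p = 0.492). For these 2 genes alone every KO library was above every WT library, an order found for 7.72% of all genes. Of the structural genes, the highest were Rpl24 (0.18, at 0.748 to 1.35 FPKM), Rpl14 (0.14), Rpl12 (0.10) and Rpl13a (0.09), each with an interval that held 0.

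In MGCs the third library of each genotype stood with the other genotype rather than with its own. Relative to the mean of the 6 libraries, the median gene was 0.07 and 0.17 log2 units up in WT libraries 1 and 2 and 0.09 down in WT library 3, and it was 0.08 and 0.10 down in KO libraries 1 and 2 and 0.04 up in KO library 3. WT library 2 was the highest of the 6 for 61 of the 84 genes. Without library 3 of both genotypes, limma called 19 of the 84 genes lower and 0 higher in KO, where 11.0% of 15433 genes were called lower, and the median was -0.22. These 19 included Rpl23a (-0.65), Rps21 (-0.51), Rpl38 (-0.49), Rpl37a (-0.40) and Rpl19 (-0.31). With any single MGC library left out, 0 were called.

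In cumulus cells, too, no ribosomal protein gene was called, although many other genes were. Limma called 0 of 83, where it called 22.3% of the 12205 genes tested. With no adjustment, 1 was higher and 2 were lower at p of 0.05 or less. The estimates fell on both sides, 39 above 0 and 44 below, with a median of -0.04 beside -0.06 for all genes. Not 1 gene of the set had its KO libraries all on one side of the WT libraries, an order that 24.1% (lower) and 18.2% (higher) of all genes showed. The median SE was 0.250, against 0.181 for the 1103 genes of any kind with a mean of 50 FPKM or more.

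**Figure D3:**
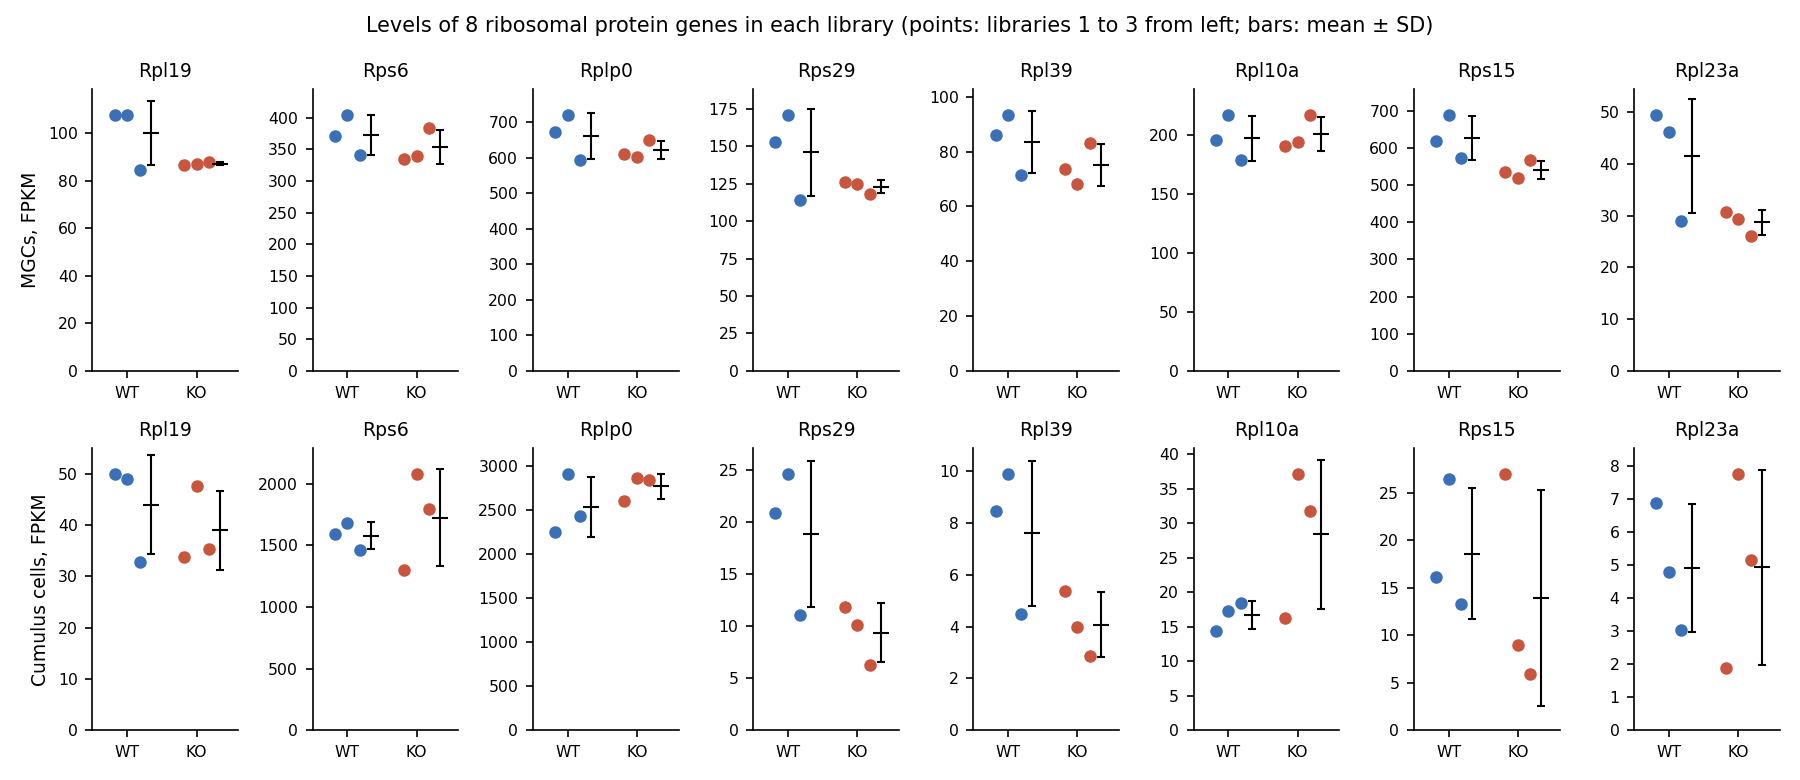
FPKM of 8 ribosomal protein genes in each library of MGCs (upper row) and cumulus cells (lower row), with the mean and SD of 3 libraries per genotype and y axes from 0. WT and KO points overlap in every panel except Rps15 in MGCs, and cumulus KO library 1 stands apart from KO libraries 2 and 3 for Rps6, Rpl10a, Rps15 and Rpl23a.

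The 4 lowest estimates in cumulus cells were those of Rps29, Rpl39, Rpl38 and Rps15. Rps29, a zinc-binding protein of the small subunit, was at 20.9, 24.6 and 11.1 FPKM in WT libraries, and in KO libraries at 11.8, 10.1 and 6.24 FPKM, a log2 fold change of -0.91 (95% interval -1.63 to -0.19, limma adjusted p = 0.0716). Rpl39, which lies in the exit tunnel, was at 8.45, 9.89 and 4.49 FPKM in WT libraries, and in KO libraries at 5.37, 3.99 and 2.87 FPKM (-0.73, 95% interval -1.39 to -0.08, limma adjusted p = 0.0988). For both, WT library 3 fell within the range of the KO libraries. Rpl38, which has been linked to the translation of Hox mRNAs, had an estimate of -0.66 (95% interval -1.41 to 0.08), with 21.3, 19.7 and 8.51 FPKM in WT libraries, and in KO libraries at 10.9, 10.4 and 7.21 FPKM. Without cumulus WT library 3, Rps29 (-1.23), Rpl38 (-1.05) and Rpl39 (-1.03) were called lower, 3 of 83 where 9.65% of all genes were. With the replicate number as a block, Rps29 and Rpl39 were called lower, 2 of 83 where 8.88% of all genes were.

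The highest estimate was that of Rpl10a, a protein of the stalk near the exit site for tRNA. It was at 14.4, 17.3 and 18.4 FPKM in WT libraries, and in KO libraries at 16.3, 37.2 and 31.7 FPKM, a log2 fold change of 0.66 (95% interval 0.01 to 1.31, limma adjusted p = 0.127). KO libraries 2 and 3 lay above all WT libraries and KO library 1 among them. Rpl36al (0.31), Rps19bp1 (0.25) and Rpl24 (0.24) were among the next, each with an interval that held 0. Rps15 was split within the KO group, at 27.0 FPKM in library 1 and 8.92 and 5.96 FPKM in libraries 2 and 3, with 16.1, 26.4 and 13.3 FPKM in WT. Rpl35 varied most, with 1.97, 24.8 and 15.04 FPKM in KO.

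**Figure D4:**
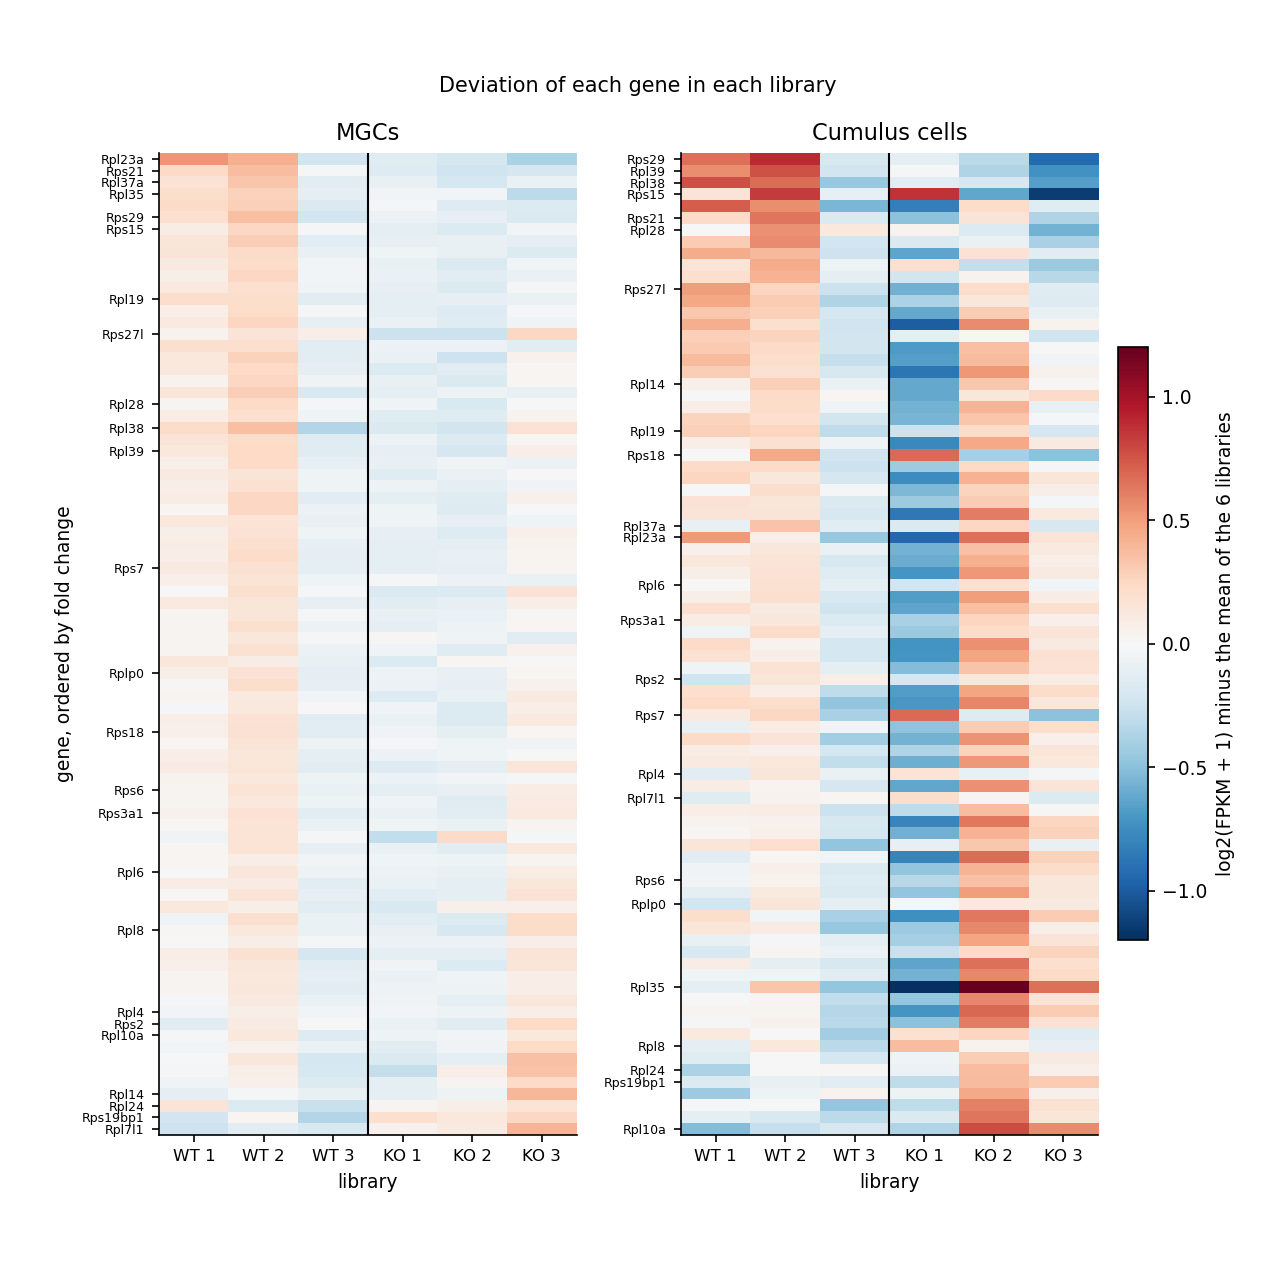
Deviation of log2(FPKM + 1) of each gene (rows, ordered by fold change) from its mean over the 6 libraries of a cell type (columns), with red for higher and blue for lower values. Cumulus KO library 1 is the lowest of the 6 for 56 of 83 genes and KO library 2 the highest for 56, while MGC libraries differ less.

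In cumulus cells many genes of the set deviated in the same direction within a library. The median gene was 0.48 log2 units below its mean in KO library 1, 0.35 above in KO library 2 and 0.08 above in KO library 3, against 0.08 and 0.15 above in WT libraries 1 and 2 and 0.20 below in WT library 3. KO library 1 was the lowest of the 6 for 56 of 83 genes, yet the highest for Rps15, Rps18, Rps7, Rpl8, Rpl4 and Rpl7l1. Rps18 (12.0 against 5.12 and 4.75 FPKM) and Rps7 (32.8 against 17.98 and 14.1 FPKM) thus differed between KO library 1 and KO libraries 2 and 3 in the opposite sense to most of the set. Without KO library 1, limma called 7 genes higher (from 0.47 to 1.09, among them Rpl10a, Rpl35, Rpl18, Rpl12 and Rps19bp1) and 2 lower (Rps15, -1.18, and Rps29, -1.08), where 14.0% and 17.8% of all genes were called, and the median was 0.21.

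Fold changes were set beside transcript length in the same way. Among structural genes whose main transcript has 600 bases or less, a limit chosen after the values were seen, 19 of 20 estimates were below 0 in MGCs (median -0.15) and 16 of 20 in cumulus cells (median -0.21). Of the longer ones, 55 of 62 were below 0 in MGCs (median -0.08) and 28 of 61 in cumulus cells (median 0.02). Spearman rho between transcript length and fold change was 0.270 over 82 genes in MGCs and 0.279 over 81 genes in cumulus cells. Between length and the deviation of single libraries rho was -0.422, -0.303 and 0.392 in cumulus WT libraries 1 to 3 and 0.0209, 0.0619 and 0.286 in the KO libraries. Genes with a pyrimidine tract by the rule above had a median fold change of -0.14 in MGCs and -0.10 in cumulus cells, and those without it -0.09 and 0.02 (30 and 31 genes).

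The effect of the knockout was then compared between the cell types in 1 model of all 12 libraries. Of 84 genes, 0 differed at an adjusted p of 0.05 or less, where 3.93% of 15869 genes did (2.45% higher in cumulus cells, 1.48% lower). With no adjustment, 1 was higher at p of 0.05 or less. For Rpl10a the difference was 0.63 (limma adjusted p = 0.306) and for Rps29 -0.68 (limma adjusted p = 0.344). The median difference over the set was 0.05, beside -0.03 for all genes. Without cumulus KO library 1, Rpl10a (0.98) and Rpl35 (1.34) were called higher, 2 of 84 where 4.25% of all genes were.

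Rpl19 was read closely because the study used it as an endogenous control. The gene (chr11:98026710-98030492, GRCm38) stood at 108, 108 and 84.6 FPKM in WT MGCs and 86.6, 87.2 and 88.1 FPKM in KO MGCs, and at 50.02, 49.0 and 32.8 FPKM (WT) and 33.9, 47.7 and 35.3 FPKM (KO) in cumulus cells. WT library 3 was the lowest WT library in both cell types, and the genotypes overlapped. The log2 fold change was -0.19 in MGCs (95% interval -0.51 to 0.14, limma adjusted p = 0.734) and -0.16 in cumulus cells (95% interval -0.65 to 0.33, limma adjusted p = 0.617). Its coefficient of variation over 6 libraries was 11.8% in MGCs, where the set ran from 3.80% (Rpl10) to 28.5% (Rpl23a) with a median of 9.72%. Counted from the lowest, Rpl19 ranked 63 of 84 there, so it varied more than most of the set. In cumulus cells it was 19.9%, where the set ran from 9.08% (Rpl4) to 70.0% (Rpl35) with a median of 26.0%, and Rpl19 ranked 25 of 83.

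Gapdh, the glycolytic enzyme used beside it, was at 32.0, 31.9 and 26.8 FPKM (WT) and 27.3, 30.8 and 26.0 FPKM (KO) in MGCs. In cumulus cells it was at 29.3, 33.3 and 30.2 FPKM in WT libraries, and in KO libraries at 25.5, 18.1 and 21.2 FPKM, so that every KO library was below every WT library (log2 fold change -0.51, 95% interval -0.89 to -0.13, limma adjusted p = 0.0599). The ratio of Gapdh to Rpl19 was 0.295 to 0.316 in WT and 0.295 to 0.353 in KO MGCs, with a log2 difference of 0.08 (exact two-sided permutation p = 0.7). In cumulus cells it was 0.585, 0.679 and 0.919 in WT and 0.752, 0.379 and 0.602 in KO, with a log2 difference of -0.36 (exact two-sided permutation p = 0.5). With 3 libraries against 3 the smallest p this test can give is 0.1.

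The genotypes also overlapped for members known for roles beside the core of the ribosome. Rps6, the substrate of the S6 kinases, was at 370, 405 and 341 FPKM (WT) and 335, 340 and 384 FPKM (KO) in MGCs, and at 1592, 1680 and 1463 FPKM (WT) and 1298, 2078 and 1796 FPKM (KO) in cumulus cells. Rplp0, the base of the stalk that recruits elongation factors, was at 671, 721 and 592 FPKM (WT) and 611, 602 and 651 FPKM (KO) in MGCs, and at 2250, 2909 and 2433 FPKM (WT) and 2604, 2857 and 2845 FPKM (KO) in cumulus cells. Their genotypes overlapped in both cell types, with intervals of the log2 fold change of -0.41 to 0.26 and -0.34 to 0.54 for Rps6 and of -0.44 to 0.27 and -0.20 to 0.47 for Rplp0. The other stalk proteins had estimates of -0.10 (Rplp1) and -0.01 (Rplp2) in MGCs and -0.06 and -0.26 in cumulus cells. Rpsa, also known as the laminin receptor precursor, had estimates of -0.04 and -0.17, and Fau, whose product is a ubiquitin-like protein fused to a small subunit protein, had -0.17 and -0.13. Their intervals all held 0.

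Several genes have paralogs in the set, some of them restricted to testis or muscle in the adult. Rpl10l, Rpl3l and Rpl39l were at or near 0, with at most 1, 6 and 4 reads in any library, and did not enter the tests. Rpl22l1, the paralog of Rpl22, was at 5.40 to 8.22 FPKM in MGCs and 6.82 to 14.1 FPKM in cumulus cells, below Rpl22 at 44.7 to 59.4 and 27.8 to 47.1 FPKM. Rps27l was below Rps27 in MGCs (37.2 to 53.3 against 115 to 154 FPKM) and above it in cumulus cells (359 to 758 against 112 to 290 FPKM). Rpl7l1, too, was below Rpl7 in MGCs (28.7 to 45.8 against 229 to 272 FPKM), while in cumulus cells their levels overlapped (135 to 175 against 76.3 to 173 FPKM). The retrogene copy Rps27rt, at 55.5 to 68.6 and 51.7 to 113 FPKM, shares 92.7% of its 31-base stretches with other genes, so reads of Rps27 could have been counted there. Rpl36al was at 1.44 to 2.02 and 1.01 to 2.73 FPKM beside Rpl36a at 66.3 to 79.7 and 19.2 to 58.8 FPKM.

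Genes that build ribosomes were set beside the proteins themselves, from lists of general knowledge. In cumulus cells, limma called 7 of 40 genes of ribosome assembly higher in KO and 0 lower, and 3 of 14 genes of RNA polymerase I, which makes the ribosomal RNA, where 9.66% of all genes were called higher. The methyltransferase Nop2, needed for large subunit rRNA, was at 10.4, 16.7 and 21.7 FPKM in WT libraries, and in KO libraries at 34.1, 29.3 and 32.7 FPKM (log2 fold change 0.99, limma adjusted p = 0.0240), and the assembly factor Ppan changed by 0.92 (limma adjusted p = 0.0258). Rrn3, the initiation factor of RNA polymerase I, was at 68.9, 74.7 and 97.0 FPKM in WT libraries, and in KO libraries at 154, 154 and 138 FPKM (0.89, limma adjusted p = 0.00909), and the polymerase subunit Polr1b changed by 0.56 (limma adjusted p = 0.0311). For all 4, which were named because they were called, every KO library was above every WT library. That order was found for 18.2% of all genes tested in cumulus cells. The calls of the RNA polymerase I list numbered 4 without cumulus KO library 1 and 1 without any other single cumulus library, and 1 with the replicate block or without the filter on low values. The calls of the assembly list depended on single libraries: they numbered 0 without WT library 1, WT library 2 or KO library 2, and 1 without KO library 3. Calls among all genes changed too, from 1179 called higher with all libraries. They numbered 588, 645 and 971 without WT library 1, 2 and 3, and 1733, 714 and 635 without KO library 1, 2 and 3. With the replicate block they numbered 913, and without the filter on low values 548.

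Of 19 genes of mTOR signaling and translation control tested in cumulus cells, 3 were called higher and 0 lower, where 9.66% and 12.7% of all genes were. They were Mycn (log2 fold change 0.87, limma adjusted p = 0.0114), Myc (0.84, limma adjusted p = 0.0377) and the cap-binding protein Eif4e (0.55, limma adjusted p = 0.0240). Myc and Mycn, transcription factors that raise ribosome production, were at 30.6 to 42.1 and 10.4 to 15.9 FPKM in WT and 46.6 to 85.7 and 23.0 to 24.8 FPKM in KO. The calls of this list numbered 1 without WT library 1, WT library 2 or KO library 2, and 5 without KO library 1. Of all genes, 588, 645, 714 and 1733 were called higher in these fits, against 1179 with all libraries. Elongation factors and other mRNAs with a TOP tract (17 genes) had 0 calls and a median of 0.19, where that of the ribosomal protein genes was -0.04.

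The proteins of the mitochondrial ribosome, named Mrpl and Mrps, leaned lower in KO cumulus cells. Limma called 20 of 76 lower in KO and 0 higher, where 12.7% of all genes were called lower, and 65 of 76 estimates were below 0, with a median of -0.34. Mrps21 was at 211, 166 and 139 FPKM in WT libraries, and in KO libraries at 64.6, 98.3 and 83.0 FPKM (log2 fold change -1.06, limma adjusted p = 0.0116), and Mrpl14 at 58.6, 55.3 and 48.0 FPKM and 19.8, 31.2 and 29.2 FPKM (-1.01, limma adjusted p = 0.0105). The calls numbered 8 to 24 with any single cumulus library left out (8, 11 and 10 without WT library 2, WT library 1 and KO library 3), and 1 without library 3 of both genotypes. Of all genes, 1546 were called lower with all libraries, and 768, 753 and 684 without WT library 2, WT library 1 and KO library 3. Without library 3 of both genotypes 318 were. The summed share of FPKM of the mitochondrial ribosome genes was 0.740% to 0.804% in WT and 0.532% to 0.612% in KO cumulus cells, without overlap, and 0.190% to 0.322% in MGCs. In MGCs 0 genes of any of these 5 lists were called, and the median was -0.06 for elongation factors and other TOP mRNAs, 0.27 for ribosome assembly (36 of 40 above 0), 0.15 for RNA polymerase I, 0.12 for mTOR and translation control and 0.05 for the mitochondrial ribosome.

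**Figure D5:**
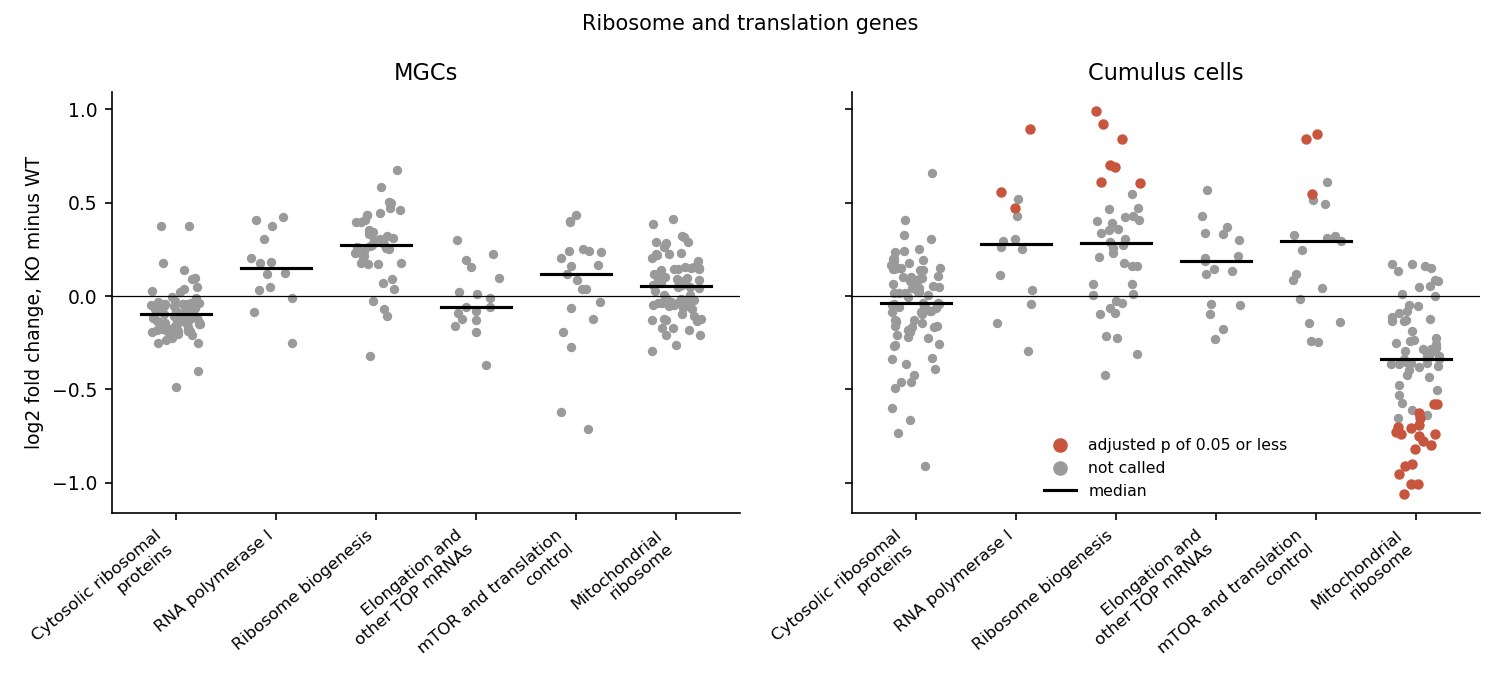
Log2 fold change (KO minus WT, y axis) of cytosolic ribosomal protein genes and of 5 lists of related genes in MGCs and cumulus cells, with each point a gene, red points called by limma at an adjusted p of 0.05 or less and bars at the median. In cumulus cells ribosomal protein genes center near 0 with 0 calls, genes of ribosome assembly lean upward (7 of 40 called) and those of the mitochondrial ribosome downward (20 of 76 called).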

How the data were processed

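RNA of MGCs and cumulus cells at 2 h post-hCG was sequenced in 12 libraries, 3 per genotype and cell type. The authors deposited FPKM values in a separate table for each cell type (29101 genes for MGCs, 33137 for cumulus cells), and 0 sample columns were left unused. The submitters' processing notes name HISAT2 and GRCm38. The counting tool and annotation are not given in the sources used here. Gene names, biotypes and transcripts came from GENCODE M21 (GRCm38), where 64 and 66 of those genes had no match. FPKM multiplied by gene length fell on whole multiples of a step for 90.6% to 92.1% of values above 0 in each library (tolerance 0.02 reads), which gave the read totals. These cover counting error only.

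Genes whose mean reached 0.5 FPKM in either genotype entered the test on log2(FPKM + 1) with limma 3.58.1 (R 4.3.3, intensity trend), within each cell type. Fold changes on this scale understate those of low genes. The difference between cell types was the interaction in 1 model of 12 libraries. A scale factor of a whole table cancels in that difference, apart from the added 1 FPKM and the filter on low values. The model otherwise takes the tables as made alike, which is not stated. P-values were adjusted over all genes tested (Benjamini-Hochberg), and a gene was called at 0.05 or less. Tested on tables drawn at random with 200 genes changed, the code recovered 72% (MGCs) and 71% (cumulus cells) of 2-fold changes and 100% of 4-fold changes. In those tables the spread of each gene was capped, and only genes above a set mean level were changed. These rates therefore do not cover genes that vary more, such as Rpl35 (SE 0.690) and Rps15 (SE 0.480) in cumulus cells. The single ratio was compared by an exact permutation test (Python 3.11.15).

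Named genes were Rpl19, Rps6, Rplp0, Rplp1, Rplp2, Rpsa, Fau, the paralogs, the 6 highest and 6 lowest estimates and the 5 highest levels per cell type, and the 2 most changed called genes of each other list and direction; others were chosen after their values were seen, among them Eif4e and the genes of the widest gaps between cell types. The members and lists were chosen with earlier results of these data known. Alternatives were another pseudocount (0.1), no filter, other scalings, no trend, the replicate number as a block, 1 fit of all libraries, pseudogenes added to members, and fewer libraries. Libraries of the same number correlated, after removal of genotype means, by 0.220, 0.158 and 0.224 in MGCs, all above the limit of 0.1 set for pairing. MGC pairs of different number ran from -0.232 to 0.155. WT library 1 with KO library 2 (0.155) thus also passed that limit, and no label states a shared animal. Protein sequences were not used here. Some genes within these rules are not reported here by name.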

Additional observations from a re-analysis of the deposited data

Results flagged for a closer look

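The knockout effect differed between the cell types for 2 genes of the related lists, both of the mitochondrial ribosome, by the interaction test. These were 2 of 77 genes of that list called lower, where 1.48% of all 15869 genes were called lower, so that the count of the list lies near the background. Mrpl40 fell in cumulus cells (86.2, 83.5 and 64.1 FPKM in WT libraries, 37.0, 40.2 and 36.7 FPKM in KO), and its log2 fold change there minus that in MGCs was -1.153 (95% interval -1.73 to -0.57, limma adjusted p = 0.0375). For Mrpl51 (cumulus WT 36.5, 37.6 and 29.7 FPKM, cumulus KO 17.3, 26.0 and 18.7 FPKM) the difference was -0.9496 (95% interval -1.46 to -0.44, limma adjusted p = 0.0468). Over the alternatives tried the adjusted p ranged from 0.0212 to 0.1022 for Mrpl40 and from 0.0365 to 0.1208 for Mrpl51, so that neither call held under all of them. None of the 84 cytosolic ribosomal protein genes was called in this comparison.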

How the results depend on the processing

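In MGCs 0 cytosolic ribosomal protein genes were called under every alternative except without library 3 of both genotypes, which gave 19 called lower and a median of -0.216. Leaving out single MGC libraries gave medians of -0.1608 to -0.03672. In cumulus cells 0 were called under every alternative except the replicate block (2 lower, Rps29 and Rpl39) and with single libraries left out, which gave 0 to 7 called higher, 0 to 3 called lower and medians of -0.2331 to 0.2065. That median also changed sign under quantile normalization (0.02978), rescaling to TPM (0.01339) and rescaling on the other genes (0.01992), so that no direction of the set can be given in cumulus cells. For the difference between cell types, single libraries left out gave 0 to 2 called higher and medians of -0.1139 to 0.2813. The log2 difference of the Gapdh to Rpl19 ratio ran from 0.01177 to 0.1422 in MGCs and from -0.5819 to -0.08695 in cumulus cells. Of the named genes, 28 of 714 values in MGCs, 28 of 697 in cumulus cells and 39 of 882 for the difference changed sign without being called.

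The labels give no shared animal for cumulus libraries of 1 number, and the deviations of same-numbered libraries correlated by -0.148, -0.0511 and 0.115. With the replicate block the calls in cumulus cells were 1 for RNA polymerase I, 1 for mTOR and translation control and 4 for ribosome assembly, and for the difference between cell types 2 higher for mTOR and translation control and 0 lower for the mitochondrial ribosome. Of all 12205 genes, 913 were then called higher in cumulus cells. For the difference 545 of 15869 were called higher and 381 lower. The block changed no call of a ribosomal protein gene in MGCs or for the difference.

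Without a filter on low values, calls in cumulus cells fell to 1 (RNA polymerase I), 1 (mTOR and translation control) and 0 (ribosome assembly), with more genes to adjust over, and those of the mitochondrial ribosome for the difference to 0. The latter numbered 1 with a pseudocount of 0.1 or quantile normalization and 0 with either rescaling. Without the filter, 548 of all 30985 genes were called higher in cumulus cells and 115 of 26382 lower for the difference. Without library 3 of both genotypes, MGCs had 1 gene of RNA polymerase I lower, 1 elongation or TOP gene lower, 1 higher and 3 lower for mTOR and translation control, 3 mitochondrial ribosome genes lower, and 3 higher and 2 lower for ribosome assembly. Of all 15433 genes, 782 were called higher and 1704 lower in this MGC fit. Cumulus cells then had 1, 1 and 0 higher for RNA polymerase I, mTOR and ribosome assembly and 1 lower for the mitochondrial ribosome, and the difference had 1 and 2 higher for RNA polymerase I and mTOR. Of all genes, 397 of 12220 were called higher and 318 lower in cumulus cells, and 1018 of 16021 higher for the difference. With single libraries left out, calls in cumulus cells ran from 1 to 4 (RNA polymerase I), 0 to 7 (elongation and TOP), 1 to 5 (mTOR), 0 to 6 (ribosome assembly) and 8 to 24 (mitochondrial ribosome, lower). They ran from 0 to 1 for the mitochondrial ribosome in MGCs, and for the difference from 0 to 1 (RNA polymerase I), 0 to 2 (elongation and TOP), 0 to 2 (mTOR) and 0 to 2 (mitochondrial ribosome). Over all genes, calls in these cumulus fits ran from 588 to 1733 (higher) and 684 to 2197 (lower). For the difference they ran from 74 to 804 (higher) and 34 to 513 (lower). The mean share of the set was 6.244% (WT MGCs), 5.976% (KO MGCs) and 7.400% (WT cumulus cells) of protein-coding FPKM, and 6.126% and 7.904% (WT MGCs and WT cumulus cells) without mitochondrially encoded genes. The causes of these changes were not tested. Depth limits the paralogs near 0, which had at most 6 reads in a library.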
